A study of Homo sapiens with 4 samples.

Results

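Transcripts of the NF-kappa B subunits and of inhibitor and feedback genes of their pathway were measured after knockdown of PTPRN. The cells were U87, a human malignant glioma line. The members were a list of names, drawn up with earlier results of these data known. They were the subunit genes NFKB1, NFKB2, REL, RELA and RELB, and the inhibitor and feedback genes NFKBIA, NFKBIE, NFKBIZ, TNFAIP3 and BIRC3. All 10 were found among the 19314 genes of the deposited table, and all 10 were among the 16595 tested, which had an expression value other than 0 in at least 1 library. The PTPRN knockdown group held 2 libraries, with PTP2 in both titles, from cells given a short hairpin against PTPRN in the vector pLKO.1. The study lists 2 hairpins against PTPRN, and the labels do not say which of them PTP2 stands for. The SCR group held 2 libraries, and the study's methods describe its control as the same vector with an insert that matches no known coding gene. No other allele or time point was given for either group. Sources differ on the medium, which the labels give as DMEM/F12 with B27, insulin, EGF and bFGF for all 4 libraries and the study's methods as DMEM with serum. All libraries came from 1 cell line, and the titles of both knockdown libraries share the name PTP2. Loss of PTPRN, off-target effects of a hairpin and differences between the cultures therefore cannot be told apart. No label stated that libraries of a group came from separate cultures, so the p-values measure the spread between these libraries, which may be technical.

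NF-kappa B is a family of dimeric transcription factors that share a Rel homology domain. In resting cells the dimers are held in the cytoplasm by I kappa B proteins. In the canonical route, receptors such as those for IL-1 and TNF activate a kinase complex that marks I kappa B for degradation and frees dimers that contain RELA. In the alternative route, the kinase encoded by MAP3K14 drives the processing of the NFKB2 precursor, and dimers of its product with RELB enter the nucleus. Several of the genes that end the response, among them NFKBIA and TNFAIP3, are themselves textbook NF-kappa B targets, which closes a negative feedback loop. In glioblastoma this pathway is known for its part in the mesenchymal and inflammatory expression programs.

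Transcript levels are given as FPKM, a measure corrected for both transcript length and sequencing depth, so that levels can be set side by side between genes. Steps in the low values placed the depth of the libraries between 18000000 and 19700000 reads. The targeted gene PTPRN had an FPKM of 12.09 and 11.68 in the PTPRN knockdown libraries and of 84.84 and 85.02 in the SCR libraries, in accord with the labels. Its mean level was 14.0% of that in SCR (log2 fold change -2.74, 95% interval -2.83 to -2.64, adjusted p = 1.48e-04, limma). Markers were checked because the recorded growth protocol names hCMEC/D3, a brain endothelial line. Of 10 endothelial markers 0 reached an FPKM of 10 in any library, and of 3 genes at a locus deleted in U87 0 reached an FPKM of 1. The mesenchymal glioma markers VIM and CD44 were abundant and higher in both knockdown libraries, with an FPKM of 4564.5 to 4766.13 and 313.53 to 315.84 with PTPRN knockdown and 1918.05 to 1997.7 and 151.56 to 151.78 in SCR, whereas NES was lower, at 3.12 to 3.39 against 12.96 to 14.24. The astrocytic markers GFAP and S100B stayed under an FPKM of 1, as did SOX2 of the same list, and AQP4 was listed without a value. SLC1A3, also an astrocytic marker, had 9.76 to 10.23 with PTPRN knockdown and 5.81 to 5.99 in SCR. OLIG2 had 0.91 to 1.15 against 0.5 to 0.54. Of 8 epithelial markers 1, CLDN4, reached an FPKM of 1. Of 10 myeloid and 8 lymphoid markers, cell types in which NF-kappa B genes are abundant, 0 reached an FPKM of 10. The summed FPKM of the myeloid markers was 6.74 to 7.54 with PTPRN knockdown and 7.64 to 7.69 in SCR, and that of the lymphoid markers was 3.22 to 3.4 and 2.34 to 2.81. The lymphoid markers CD3E, CD3D and MS4A1 were listed without a value, as were the myeloid markers AIF1 and TYROBP. Markers within a list moved in both directions. The highest single value of a myeloid marker was that of CSF1R in SCR, at 1.96 to 2.17 FPKM with PTPRN knockdown against 3.11 to 3.17, while FCER1G had 0.91 to 1.12 against 0.41 to 0.65. Of lymphoid markers, IL7R had the highest single value, at 2.9 to 3.08 with PTPRN knockdown against 0.58 to 0.78, while CD2 had 0 to 0.04 against 1.44 to 2.11. Of endothelial markers, PECAM1 had the highest, at 1.21 to 1.26 against 2.39 to 2.5, while KDR, TEK and ERG were higher in both knockdown libraries and stayed at or under an FPKM of 1.08. The part of these markers in the results was not tested. In RNA from whole cultures, a change in the number of expressing cells and a change in RNA per cell cannot be told apart.

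The promoters of several members carry the DNA element that the family binds. A promoter window ran from 250 bases before to 50 bases after a transcript start in RefSeq (GRCh38.p14), and 8 of the 10 members had 1 or more windows. RELB and NFKBIE had none in the table. The kappa B motif was searched in its usual form of 10 letters on both strands, and matches that overlapped were counted as 1 site. It was found in 7 of these 8 genes and in 9 of their 13 windows. Among the 27305 genes in the table it was found in 13.3%, and among the 35116 windows in 11.3%. The windows of the members were richer in G and C, with a median of 68.7% against 58.7%, and the part of base composition in the count was not tested. RELA had no match in either of its 2 windows. A match is a run of letters and was not read as a bound site.

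A site from each of the genes with a match is printed here so that the element can be compared between members, 5′ to 3′ on the strand of the gene. On each line capitals mark 1 site. NFKB2 is given with a site from 2 of its windows, and TNFAIP3 with 2 neighbouring sites whose lines overlap. Positions are on GRCh38.

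NFKB1, chr4:102501300-102501329, plus strand: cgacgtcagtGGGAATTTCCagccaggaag

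NFKB2, chr10:102394462-102394490, plus strand: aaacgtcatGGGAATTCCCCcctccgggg

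NFKB2, chr10:102395674-102395703, plus strand: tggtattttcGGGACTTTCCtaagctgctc

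REL, chr2:60881518-60881546, plus strand: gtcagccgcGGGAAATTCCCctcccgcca

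NFKBIA, chr14:35404811-35404840, minus strand: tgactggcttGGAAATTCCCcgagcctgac

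NFKBIZ, chr3:101827757-101827786, plus strand: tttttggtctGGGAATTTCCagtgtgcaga

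TNFAIP3, chr6:137867182-137867211, plus strand: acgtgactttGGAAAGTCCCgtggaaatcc

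TNFAIP3, chr6:137867194-137867223, plus strand: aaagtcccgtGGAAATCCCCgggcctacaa

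For BIRC3, the member that moved most, the 216 bases up to its annotated exon are given whole (chr11:102317234-102317449, plus strand). They held 2 sites, both in capitals.

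BIRC3: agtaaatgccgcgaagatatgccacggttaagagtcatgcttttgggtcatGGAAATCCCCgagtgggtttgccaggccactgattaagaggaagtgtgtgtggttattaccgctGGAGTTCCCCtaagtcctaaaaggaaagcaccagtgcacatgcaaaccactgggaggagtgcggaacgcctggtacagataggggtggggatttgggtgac

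**Figure D1:**
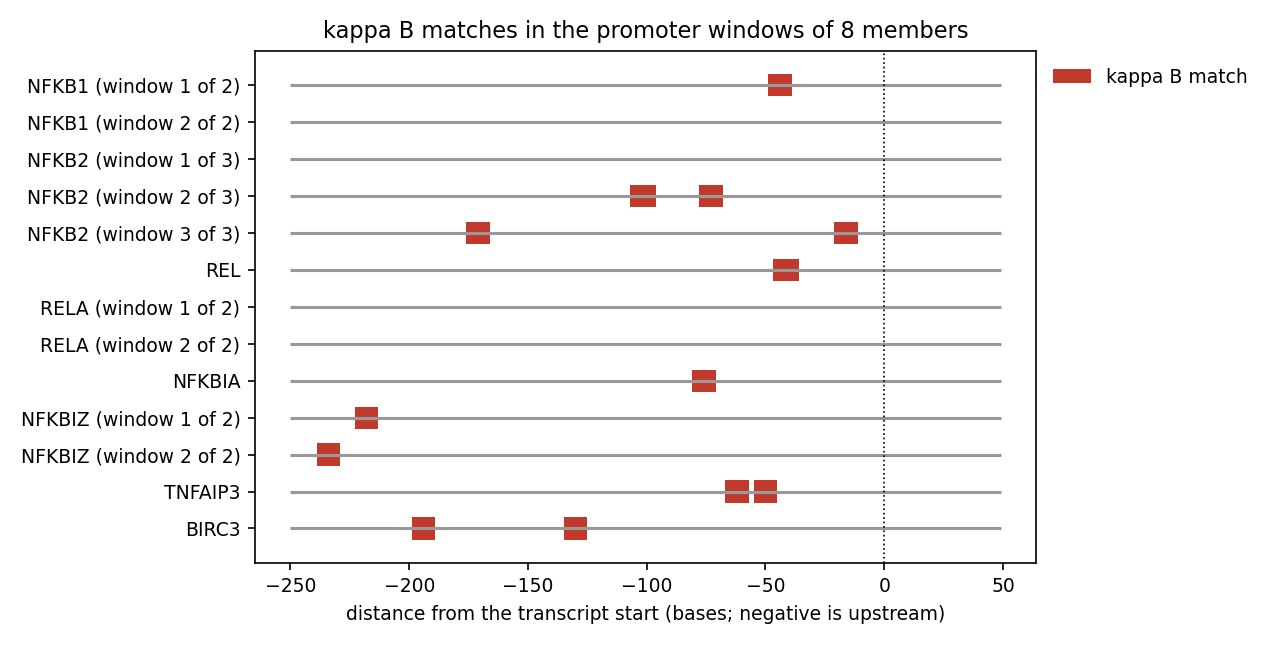
Each line is a promoter window from 250 bases before to 50 bases after a transcript start, with windows of a gene in the order of their position on the chromosome, and each red block is a stretch covered by kappa B matches. Sites lay upstream of the start of their window in 9 of the 13 windows, and both RELA windows were empty. The sites of REL and TNFAIP3, and some of those of NFKB2 and NFKBIZ, overlap GENCODE exons of the same gene. That of NFKB1 overlaps an exon of another annotated gene.

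Of the 10 members, 7 rose and 2 fell with PTPRN knockdown, and NFKBIA did not pass the test. The largest rises were those of BIRC3, NFKB2 and NFKBIE, followed by TNFAIP3 and RELB. NFKB1 and REL fell. The test was that of limma on log2(FPKM + 1), with Benjamini-Hochberg adjustment over the whole table. At an adjusted p up to 0.05, 57.9% of all genes tested passed, 30.8% as higher and 27.1% as lower. All 10 members had a mean FPKM of 1 or more over the 4 libraries. BIRC3 did so only through its knockdown libraries, with 4.77 and 4.66 against 0.19 and 0.15 in SCR. Among genes at that mean level, 74.6% passed. With 1 library left out the genes past this threshold fell from 9603 to between 6181 and 6332, whichever library it was, and the members from 9 to 7 or 8. A count of 9 members past this threshold is therefore read beside a background in which most expressed genes pass.

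The study's own thresholds are stricter, a 2-fold difference together with an adjusted p up to 0.001. Genes past both on the log2(FPKM + 1) scale are called differential here, and 3 members were, all of them higher. These strict calls ended for every gene, the 3 members included, with a pseudocount of 0.1, with the replicate block and with any 1 of the 4 libraries left out. Across all genes tested 6.69% were differential, 2.63% higher and 4.06% lower, and among genes whose mean FPKM was 1 or more it was 9.57%. The median log2 fold change was 0.74 over the 10 members, against 0.01 over all genes tested and 0.06 over those with a mean FPKM of 1 or more. In all 10 members the values of 1 group lay wholly above those of the other, which also held for 75.6% of all genes tested, whatever their mean FPKM. In the pathway lists described below it held for 23 of 24 receptors and adaptors and for all 12 kinases. It also held for all 22 genes of the ubiquitin machinery, all 12 other I kappa B proteins and cofactors, and 33 of 40 target genes.

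**Figure D2:**
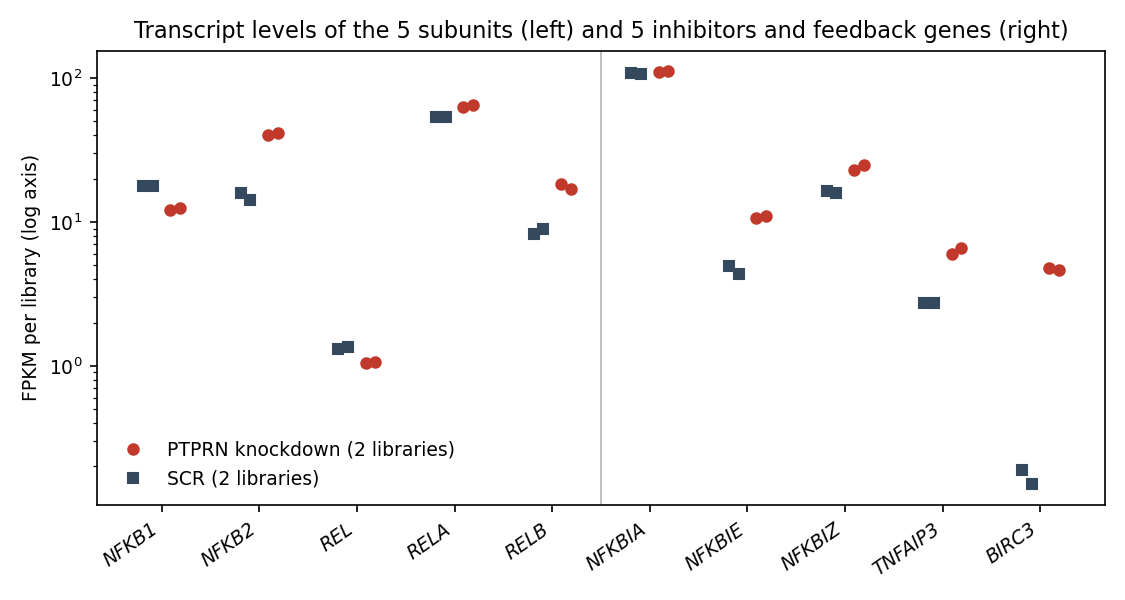
The FPKM of each member in each library on a log axis, with SCR libraries as squares and PTPRN knockdown libraries as circles. The libraries of a group lie close together, and the gap between groups is widest for BIRC3, from 0.15 and 0.19 to 4.66 and 4.77.

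NFKB2 encodes the precursor that is processed to p52, the partner of RELB in the alternative route. The gene spans chr10:102394110-102402529 on the plus strand. Its FPKM was 40.37 and 41.32 with PTPRN knockdown and 15.86 and 14.10 in SCR. Both knockdown libraries were far above both controls, and the difference passed the strict thresholds (log2 fold change 1.39, 95% interval 1.20 to 1.58, adjusted p = 5.92e-04, limma). It was a 2.73-fold difference of the mean FPKM. A log2 fold change at least as high was found in 1.18% of all genes tested.

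RELB (chr19:45001449-45038198, plus strand), which enters the nucleus mostly as a dimer with p52, had an FPKM of 18.22 and 16.97 with PTPRN knockdown and of 8.27 and 8.98 in SCR. The groups were well apart, but the log2 fold change of 0.95 (95% interval 0.78 to 1.12, adjusted p = 9.88e-04, limma) lay just under the fold threshold. The ratio of the mean FPKM without a pseudocount was 2.04. Of all genes tested, 3.57% had a log2 fold change at least as high.

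RELA (chr11:65653596-65662972, minus strand) encodes p65, the main activating subunit of the canonical route. Its FPKM was 63.11 and 64.88 with PTPRN knockdown and 53.60 and 53.37 in SCR. The knockdown libraries were higher by a small margin (log2 fold change 0.25, 95% interval 0.16 to 0.34, adjusted p = 0.00498, limma). Without SCR replicate 1 or SCR replicate 2 the log2 fold change of RELA was 0.26 and 0.25, while the call at 0.05 was lost. With 1 library left in a group, the spread came from the other group alone. An opposite-strand transcript shares 9 exon bases with RELA, and use of strand in the counting was not stated.

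NFKB1 (chr4:102501329-102617302, plus strand) encodes the precursor of p50, which pairs with RELA. It moved against NFKB2, its closest relative. Its FPKM was 12.18 and 12.59 with PTPRN knockdown and 17.76 and 17.65 in SCR, lower in both knockdown libraries than in either control (log2 fold change -0.48, 95% interval -0.58 to -0.39, adjusted p = 0.00113, limma). Its mean level with PTPRN knockdown was 70.0% of that in SCR.

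REL (chr2:60881495-60928171, plus strand) encodes c-Rel, a subunit best known from lymphocytes. It was scarce in all libraries, with an FPKM of 1.05 and 1.07 with PTPRN knockdown and 1.31 and 1.36 in SCR. The small fall (log2 fold change -0.18, adjusted p = 0.0118, limma) was lost under 4 of 11 other settings, with an adjusted p of up to 0.109. A same-strand non-coding transcript shares 5702 exon bases with REL, so that reads of the pair are not separated here.

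The make-up of the subunit transcripts shifted with these changes. The summed FPKM of the 5 subunits was 135 and 137 with PTPRN knockdown and 96.8 and 95.5 in SCR. The share of NFKB2 in that sum was 29.9% and 30.2% with PTPRN knockdown and 16.4% and 14.8% in SCR. The share of RELB was 13.5% and 12.4% against 8.54% and 9.41%.

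RELA remained the most abundant subunit, though its share was 46.8% and 47.4% with PTPRN knockdown against 55.4% and 55.9% in SCR. That of NFKB1 was 9.03% and 9.20% against 18.3% and 18.5%. REL held 0.778% and 0.782% of the sum with PTPRN knockdown and 1.35% and 1.42% in SCR. For each of the 5 shares the groups did not overlap. With 2 libraries against 2, a two-sided exact permutation test cannot go below p = 0.333, and each share gave that value.

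Within a library the order of the 2 precursor genes was turned. In SCR, NFKB2 stood at 0.893 and 0.799 times the FPKM of NFKB1. With PTPRN knockdown it stood at 3.31 and 3.28 times. The level of RELB was 0.289 and 0.262 times that of RELA with PTPRN knockdown and 0.154 and 0.168 times in SCR. These ratios do not depend on the scaling between libraries, and each gave the smallest exact p that the design allows, 0.333.

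**Figure D3:**
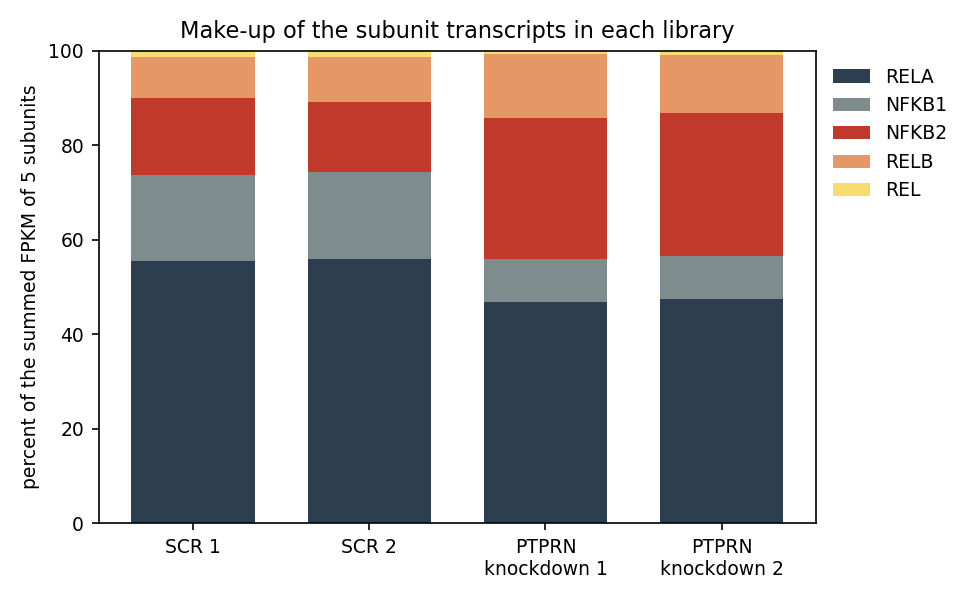
Stacked bars show the percent of the summed FPKM of the 5 subunits held by each of them in each library, on an axis from 0 to 100. NFKB2 widened from 16.4% and 14.8% in SCR to 29.9% and 30.2% with PTPRN knockdown, and NFKB1 narrowed from 18.3% and 18.5% to 9.03% and 9.20%.

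NFKBIA (chr14:35401510-35404754, minus strand) encodes I kappa B alpha, the inhibitor that is degraded and resynthesised as NF-kappa B dimers are released. It was the most abundant member in both groups, with an FPKM of 109.73 and 111.11 with PTPRN knockdown and 108.89 and 106.60 in SCR. The gap between group means was little wider than the spread within a group (log2 fold change 0.04, 95% interval -0.05 to 0.12, adjusted p = 0.406, limma), and the sign turned under 2 other scalings, to -0.09 and -0.01.

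NFKBIE (chr6:44258166-44265788, minus strand) encodes I kappa B epsilon, which is also made in response to NF-kappa B and binds dimers with RELA or REL. Its FPKM was 10.68 and 10.92 with PTPRN knockdown and 4.93 and 4.35 in SCR. Both knockdown libraries were above both controls, and the gene was differential (log2 fold change 1.07, 95% interval 0.89 to 1.24, adjusted p = 8.45e-04, limma). With each library left out in turn its log2 fold change was 0.99 to 1.14. Its level relative to NFKBIA was 0.0973 and 0.0983 times with PTPRN knockdown and 0.0453 and 0.0408 times in SCR.

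NFKBIZ (chr3:101827990-101861286, plus strand) encodes I kappa B zeta, an atypical nuclear member that acts with p50 dimers on secondary response genes such as IL6. Its FPKM was 23.06 and 24.73 with PTPRN knockdown and 16.52 and 15.84 in SCR, higher in both knockdown libraries (log2 fold change 0.53, 95% interval 0.39 to 0.68, adjusted p = 0.00238, limma). Without SCR replicate 1 or SCR replicate 2 the log2 fold change of NFKBIZ was 0.56 and 0.51, and here, too, the call at 0.05 was lost.

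TNFAIP3 (chr6:137867188-137883314, plus strand) encodes A20, a ubiquitin-editing enzyme that shuts off signaling upstream of the kinase complex. Its FPKM was 6.02 and 6.63 with PTPRN knockdown and 2.72 and 2.75 in SCR. The groups were apart by a 2.31-fold difference of the mean FPKM. On the log2(FPKM + 1) scale the difference was 0.97 (95% interval 0.82 to 1.12, adjusted p = 7.38e-04, limma), just under the fold threshold, and with quantile normalization it was 1.02 and the gene was differential. An antisense transcript shares 95 exon bases with TNFAIP3.

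BIRC3 (chr11:102317450-102339403, plus strand) encodes cIAP2, a ubiquitin ligase that acts in TNF receptor signaling and, with TRAF2 and TRAF3, marks the kinase encoded by MAP3K14 for degradation. Its FPKM was 4.77 and 4.66 with PTPRN knockdown and 0.19 and 0.15 in SCR. BIRC3 was the scarcest member in SCR and passed REL with PTPRN knockdown. The log2 fold change was 2.29 (95% interval 2.19 to 2.39, adjusted p = 1.58e-04, limma), and 0.337% of all genes tested had one at least as high. The pseudocount of 1 understates this change, since the ratio of the mean FPKM was 27.7 and the log2 fold change with a pseudocount of 0.1 was 4.16. About 26 and 19 reads lay behind the SCR values, with 95% exact Poisson intervals of 0.124 to 0.278 and 0.0903 to 0.234 FPKM, against 4.39 to 5.17 and 4.29 to 5.06 with PTPRN knockdown. The intervals cover counting error only and rest on the longest transcript as the length.

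BIRC2, the neighbouring relative of BIRC3 that encodes cIAP1, was set beside it after its values were seen. Its FPKM was 19.27 and 19.49 with PTPRN knockdown and 13.25 and 13.01 in SCR (log2 fold change 0.53, adjusted p = 8.07e-04, limma). BIRC3 stood at 0.248 and 0.239 times the level of BIRC2 with PTPRN knockdown and at 0.0143 and 0.0115 times in SCR.

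**Figure D4:**
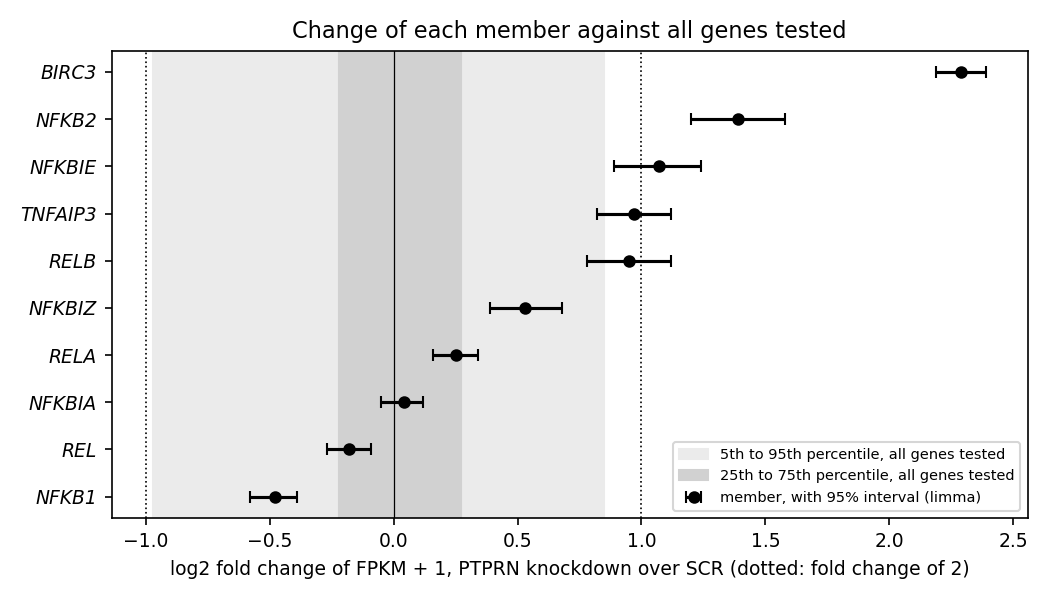
Points give the log2 fold change of FPKM + 1 of each member with its 95% limma interval, beside grey bands for the middle of all genes tested. BIRC3, NFKB2, NFKBIE, TNFAIP3 and RELB lie above the 95th percentile of all genes at 0.85, while NFKBIA, REL and RELA lie within the 25th to 75th percentile, -0.22 to 0.27.

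As a group, the 5 inhibitor and feedback genes had a summed FPKM of 154 and 158 with PTPRN knockdown and 133 and 130 in SCR. NFKBIA made up 71.1% and 70.3% of it with PTPRN knockdown and 81.7% and 82.2% in SCR. Because the subunits rose more in sum, the log2 ratio of these 5 genes to the subunits was lower with PTPRN knockdown, at 0.193 and 0.208 against 0.461 and 0.442. The ratio sets transcript sums side by side, with NFKBIZ and BIRC3 included, and does not measure inhibition. With NFKBIA left out, after its values were seen, the ratio of the other 4 genes went the other way, at -1.60 and -1.54 against -1.99 and -2.05. Both comparisons gave an exact permutation p of 0.333, the smallest possible here.

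The order of the 10 levels also changed. In SCR it ran from NFKBIA, RELA and NFKB1 through NFKBIZ, NFKB2 and RELB to NFKBIE, TNFAIP3, REL and BIRC3. The ranges of NFKBIZ and NFKB2 overlapped in SCR, and no other neighbours did. With PTPRN knockdown NFKB2 moved up behind RELA, followed by NFKBIZ, RELB, NFKB1, NFKBIE, TNFAIP3, BIRC3 and REL, and no neighbours overlapped.

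The other genes of the pathway were taken from 5 lists, whose counts can be read against the shares of all genes given above. Of 24 receptors and adaptors, 11 rose and 10 fell at the 0.05 threshold, with a median log2 fold change of 0.11. Without SCR replicate 1 or SCR replicate 2, 11 passed in place of 21. Only MALT1, a protease and scaffold that links antigen receptors to NF-kappa B, was differential at the strict thresholds. It had an FPKM of 10.63 and 10.24 with PTPRN knockdown and 31.65 and 31.98 in SCR (log2 fold change -1.52, adjusted p = 2.43e-04, limma).

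The TNF receptors went in opposite directions. They were named after their values were seen. TNFRSF1A, the ubiquitous death domain receptor, had an FPKM of 57.98 and 56.48 with PTPRN knockdown and 88.01 and 89.08 in SCR (log2 fold change -0.62, adjusted p = 6.72e-04, limma). TNFRSF1B, which binds TRAF2 and lacks a death domain, had 18.68 and 21.19 against 9.75 and 9.32 (log2 fold change 0.99, adjusted p = 0.00138, limma).

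Of 12 kinases of the I kappa B kinase axis, 8 rose and 2 fell at 0.05, with a median of 0.18. With any 1 of the 4 libraries left out, 4 or 5 passed in place of 10. MAP3K8 and MAP3K14 were differential and higher. MAP3K14 encodes NIK, the kinase that starts NFKB2 processing, and had an FPKM of 7.69 and 7.88 with PTPRN knockdown and 3.31 and 3.21 in SCR (log2 fold change 1.04, adjusted p = 3.49e-04, limma). MAP3K8 encodes TPL2, a kinase bound by the NFKB1 precursor, and had 8.89 and 8.47 against 1.93 and 2.25 (log2 fold change 1.65, adjusted p = 4.63e-04, limma).

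Of 22 genes of the ubiquitin machinery, 12 rose and 1 fell at 0.05, with a median of 0.23. Without PTPRN knockdown replicate 1 or 2, 7 and 8 passed in place of 13. TNIP3, an A20-binding protein, was differential and higher, with an FPKM of 9.68 and 9.34 with PTPRN knockdown and 3.58 and 3.97 in SCR (log2 fold change 1.14, adjusted p = 6.00e-04, limma). Of 12 other I kappa B proteins and cofactors, 4 rose and 7 fell, with a median of -0.22, and 7 passed in place of 11 without SCR replicate 1 or SCR replicate 2. PDLIM2, a ligase for nuclear RELA, was differential and lower, with an FPKM of 14.19 and 13.58 against 29.66 and 28.65 (log2 fold change -1.02, adjusted p = 4.49e-04, limma).

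Other I kappa B proteins of that list, named after their values were seen, split as well. NFKBIB, which encodes I kappa B beta, had an FPKM of 23.13 and 21.22 with PTPRN knockdown and 11.98 and 12.42 in SCR, a log2 difference of 0.81 (adjusted p = 0.00115, limma). NFKBID, a nuclear member, had 5.71 and 5.75 against 2.98 and 2.80, a log2 difference of 0.79 (adjusted p = 5.91e-04, limma). BCL3, which partners p50 and p52 in the nucleus, had a log2 difference of -0.51 (adjusted p = 8.31e-04, limma). NFKBIL1 fell further, with 7.81 and 9.40 against 18.32 and 18.16, a log2 difference of -1.01 (adjusted p = 0.00229, limma).

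Of 41 textbook target genes 40 had a value, and 21 rose and 9 fell at 0.05, with a median log2 fold change of 0.30. At the strict thresholds 13 were higher and 1 was lower. The largest rises were those of the neutrophil chemokine CXCL5 (197.85 and 199.82 against 0.04 and 0.11 FPKM), the cytokine IL1B (2816.81 and 2782.29 against 43.53 and 42.79) and the chemokine CXCL3 (122.84 and 118.51 against 2.90 and 2.87). About 2 and 5 reads lay behind the SCR values of CXCL5, so the size of its rise is imprecise. The monocyte chemokine CCL2 was the differential gene that fell, with an FPKM of 3.56 and 3.73 with PTPRN knockdown and 15.90 and 15.86 in SCR (log2 fold change -1.86, adjusted p = 1.94e-04, limma). These targets were listed with earlier results of the series known, so their count is a description.

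**Figure D5:**
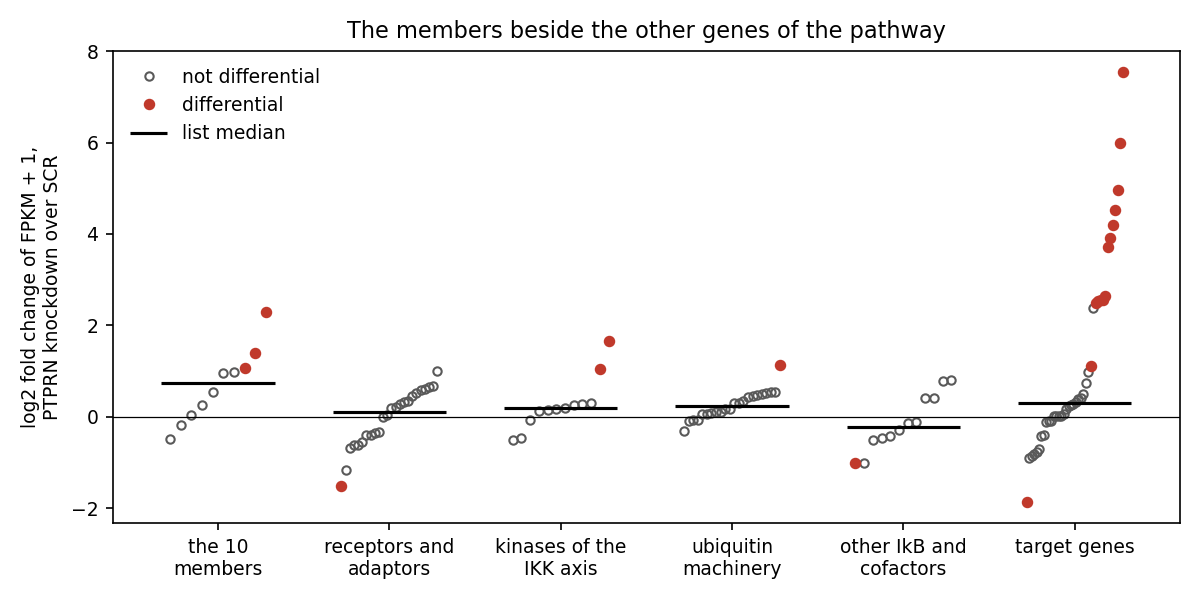
Each point is a gene, placed by its log2 fold change of FPKM + 1 within the 10 members or 1 of the 5 pathway lists. Filled red points are differential at the strict thresholds, and black lines mark medians, which ran from -0.22 for other I kappa B proteins and cofactors to 0.74 for the members.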

How the data were processed

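RNA of U87 cells was sequenced by the authors as single-end reads of 50 bases on a BGISEQ-500, in 2 PTPRN knockdown and 2 SCR libraries. Groups and replicate numbers were taken from the sample titles. The authors deposited FPKM values per gene and library, keyed by NCBI Gene ID. The submitters' processing notes name HISAT2 2.1.0 and hg19, while 87.7% of the 18737 gene starts that could be matched lay within 1000 bases of GRCh38. The counting program and strand setting are not given in the sources used here. The deposited tables also hold the authors' own group means and tests of differential expression, which were left aside. None of the 66380 FPKM values differed between the 2 tables.

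No read counts were used. Depth was read from the steps of low FPKM values in genes with 1 transcript of 500 to 1500 bases. Genes were tested with limma 3.58.1 (lmFit and eBayes, default options, R 4.3.3) after log2(FPKM + 1) transformation, with no covariate. The pseudocount of 1 understates changes of low genes. Single ratios and shares were compared with exact permutation tests, two-sided. Promoters came from RefSeq (GRCh38.p14) and overlaps from GENCODE 29. Protein sequences were not analysed here.

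The members and lists were chosen with earlier results of these data known. From each pathway list the text names up to 3 rises and 3 falls, the largest that were differential and whose higher group averaged an FPKM of 1 or more. Of markers it names the highest of a list and those listed at 0 or without a value. CD44, NES, GFAP, S100B, SOX2, SLC1A3, OLIG2, FCER1G, CD2, KDR, TEK, ERG and other genes outside this rule were chosen after their values were seen. No gene was named for likeness of pattern, since 4 libraries in 2 groups give little more than the group difference. The alternatives were another pseudocount, a minimum FPKM, 2 scalings, an eBayes trend, the replicate number as a block and leaving out each library. A pseudocount of 0.1 with an eBayes trend was added after seeing the data.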

Additional observations from a re-analysis of the deposited data

How the results depend on the processing

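With a pseudocount of 0.1, with the replicate block and with each library left out in turn, limma called 0 genes in the whole table at an adjusted p of at most 0.001, so 0 members and 0 genes of each of the 5 lists were differential there (range 0 to 0 with a library left out). The lowest adjusted p of any gene was then 0.00122, 0.00396 and 0.0226 to 0.0229. At an unadjusted p under 0.05, 10185, 10108 and 8700 to 8790 genes passed, and 9 members in each of these settings. The cause was not tested. A library that stood alone in its group was assumed to vary like the others. At an adjusted p of 0.05 the members past the threshold numbered 9 with the replicate block, as without it, and 7 to 9 over all 11 alternatives. With a pseudocount of 0.1 and an eBayes trend, 2 members were differential, NFKB2 and BIRC3. With genes kept only where 2 or more libraries had an FPKM of 1 or higher, 2 receptors and adaptors and 2 cofactors were differential in place of 1 each. NFKBIA had -0.09 with quantile normalization and -0.01 with median-ratio scaling. Apart from NFKBIA, each member kept its direction in all 11 alternatives. Same-numbered libraries did not deviate together (correlation 0.0635 over 11270 genes), so the replicate numbers were not treated as pairs. Squared differences between replicates were compared with those of counting error alone, in genes with 1 transcript and a middle range of reads. Their median was 1.29 times as large with PTPRN knockdown (1784 genes) and 1.13 times in SCR (1816 genes). Low counts limit the precision of REL and, in SCR, of BIRC3.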
